A study of Mus musculus with 16 samples.

Results

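Collagens III and V were read here from 5 rows of a count table with 47517 rows per library, in cortical bone of the mouse tibia. The rows named Col3a1, Col5a1 and Col5a2 were taken by gene name. They too were chosen with earlier results of these data known, so their p-values may not be free of that choice. The rows 2810430I11Rik and Gm13372 lie on the other strand of the Col5a1 locus, opposite exons of that gene, and were selected on their fragment counts, for a response to loading. Their loading values are therefore given as a description with no test.

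The 4 groups were loaded right tibiae of 4 NT3-Cre+ mice (called NT3), the non-loaded left tibiae of the same 4 mice, loaded right tibiae of 4 Ctrl mice, and the non-loaded left tibiae of those 4 mice. All 8 mice were males aged 16 weeks, and the study's title places NIK, the NF-kB inducing kinase, in an active form in bone-forming cells. No source used here names the allele that NT3 stands for, the promoter that drives Cre, or what the Ctrl mice carry. Right tibiae were compressed on 9 days at 1200 cycles a day, with a peak force of 10.0 N in NT3 and 8.7 N in Ctrl, which gave the same strain of -2000 microstrain. Bone was collected 4 hours after the last bout, with muscle stripped and marrow flushed out.

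Type I, III and V collagens form the fibrils of connective tissue. Type III collagen is a homotrimer of the Col3a1 product and is abundant in skin, vessels and other pliable tissues, with little in mineralised bone matrix. Type V collagen is a minor component built mainly from Col5a1 and Col5a2 chains. It sits within type I fibrils, where it helps to start fibril assembly and limits fibril diameter. Col5a3 encodes a further type V chain with a narrower tissue range. The roles of 2810430I11Rik and Gm13372, both annotated as processed transcripts without a coding sequence, are not described here.

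In NT3 bone none of the Col3a1, Col5a1 and Col5a2 rows passed the test for loading, with log2 changes of 0.34 to 1.18, where edgeR called 0.334% of the 7192 rows tested higher. In Ctrl bone all 3 rose with loading, by 1.37 to 1.90 on the log2 scale, where edgeR called 3.07% of rows higher. With the level of rows opposite marrow genes as a covariate, none of these 3 calls held (edgeR adjusted p of 0.21 to 0.69). The log2 change was then larger for Col3a1 (1.79 against 1.45) and Col5a2 (2.02 against 1.90) and smaller for Col5a1 (0.84 against 1.37). That covariate rests on 2 rows that were themselves lower in loaded limbs on average. The fit therefore cannot fully tell their level and loading apart. Loaded limbs lay above non-loaded limbs without overlap for the 3 collagen rows in Ctrl, as for 4.91% of rows tested. The rows opposite Col5a1, which were chosen for their loading response, were higher in the loaded limb in 8 of 8 mice. The Col5a1 row carried a mean of 4.25% to 6.58% of the summed fragments of the 3 rows per group.

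The 16 libraries held 758394 to 1064391 fragments each, and depth ranges of the 4 groups overlapped. Row lengths equalled exon lengths of the GENCODE M21 annotation on GRCm38 for all 5 rows. Of rows matched to that annotation by name and averaging at least 100 fragments, 87.9% (1076 of 1224) faced exons of an antisense gene, against 15.2% (6686 of 44026) of rows below that level. The sources used here do not give the strand setting of the counting. The files alone thus do not say whether a row holds fragments of its own gene or of the gene opposite. Ckm had 0 to 12 fragments and A930016O22Rik, opposite it, 184 to 3543. Mpo had 1 to 10 and Gm11505, opposite it, 1764 to 6732. Tagln went the other way, with 54 to 89 against 12 to 31 for Pcsk7, opposite it. The Tagln row also lies opposite Gm48529. The strand that the fragments came from was not tested. Bone-cell marker rows were uneven. Of the osteocyte rows, Dmp1 and Mepe had 45 to 161 and 34 to 127 fragments and Fgf23 had 0 to 1. Of the osteoblast rows, Ibsp, Runx2 and Phospho1 had 57 to 235, 54 to 107 and 46 to 102, while Bglap and Bglap2 had 0 to 4 and 0 to 1. Alpl, Sp7 and Spp1 had 0 to 15, 0 to 9 and 2 to 23. The Runx2 and Phospho1 rows themselves lie opposite Runx2os1 and Abi3. Low counts by name are read with the strand setting unknown, so they do not show that a gene was silent. In bulk tissue, fewer cells of a type and less RNA per cell cannot be told apart.

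Col5a1 occupies chr2:27886425-28039514 on the plus strand of GRCm38, a span of 153 kb with 66 exons. 2810430I11Rik occupies chr2:27882925-27887052 on the minus strand. Its upstream end lies 0.627 kb inside Col5a1, its intron of 712 bases holds the Col5a1 start, and its long exon of 3189 bases lies before that start. Only 99 of its 3416 exon bases, 2.9%, lie opposite a Col5a1 exon, and these are coding bases of exon 1. Gm13372 occupies chr2:28025417-28030437 on the minus strand, near the other end of the gene. An exon of 365 bases covers all 113 bases of Col5a1 exon 63, which is coding, and this is 16.4% of the row length of 688 bases. The other Gm13372 exon lies opposite Col5a1 intron 64. Together the rows face 212 of the 8490 exon bases of Col5a1, or 2.5%.

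The overlapped Col5a1 stretches are shown because they are the only places where exons of these rows face each other. Both are from the GENCODE M21 transcripts, 5′ to 3′ on the Col5a1 strand. The first starts at the start codon, and capitals mark the bases opposite 2810430I11Rik, chr2:27886826-27886924, which begin at coding base 11. The second is the whole of exon 63, chr2:28025593-28025705, all of it opposite Gm13372.
Col5a1 exon 1, coding part: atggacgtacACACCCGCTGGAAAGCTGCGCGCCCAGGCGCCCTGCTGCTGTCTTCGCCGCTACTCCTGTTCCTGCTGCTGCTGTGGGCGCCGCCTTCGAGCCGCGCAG
Col5a1 exon 63: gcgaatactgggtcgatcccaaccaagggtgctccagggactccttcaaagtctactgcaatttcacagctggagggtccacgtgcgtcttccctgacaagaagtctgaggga
The overlap bases of exon 1 were 70.7% G and C, and exon 63 was 54.9% G and C.

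**Figure D1:**
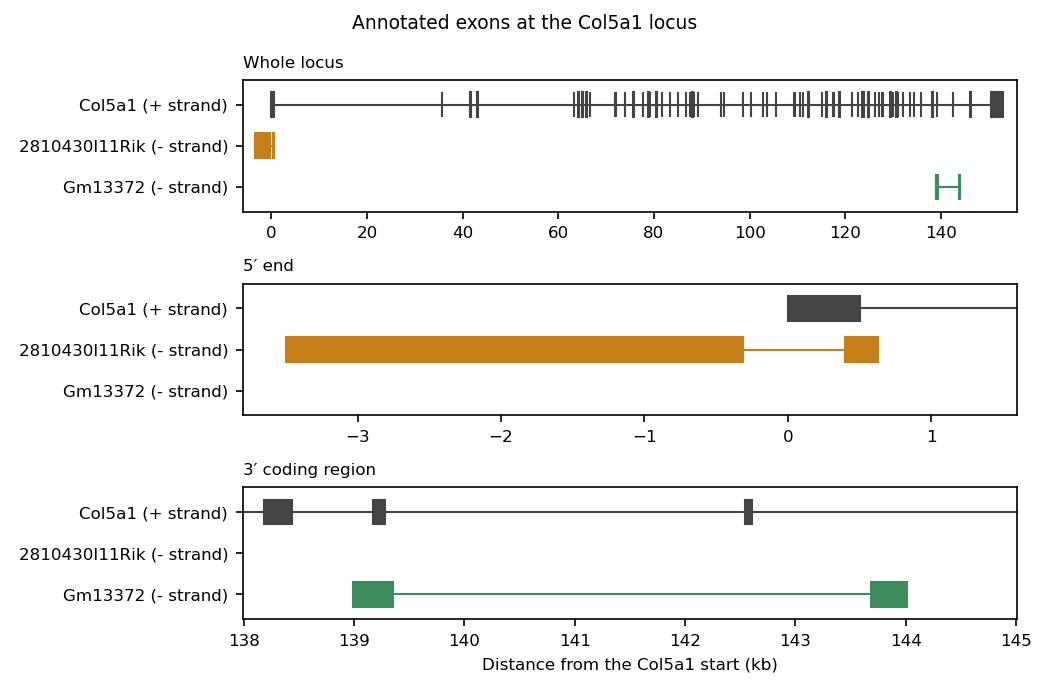
Annotated exons (boxes) and introns (lines) of Col5a1, 2810430I11Rik and Gm13372, plotted by distance in kb from the Col5a1 start, for the whole locus and for both regions of overlap. The Col5a1 start falls in the intron of 2810430I11Rik, and Gm13372 covers the whole of Col5a1 exon 63.

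Col3a1, at chr1:45311538-45349706 on the plus strand, and Col5a2, at chr1:45374321-45503282 on the minus strand, are neighbours whose 3′ ends face each other 24.6 kb apart. No annotated row lay opposite exons of Col3a1, Col5a2 or Col5a3. The 250 bases before the start of Col3a1 and of Col5a1 are shown because both rows rose in Ctrl and the table of promoters holds both. They are from RefSeq (GRCm38.p6), on the plus strand, chr1:45311288-45311537 and chr2:27886175-27886424. Capitals mark matches on either strand to TATAAA or GGGCGG.
Col3a1 promoter window: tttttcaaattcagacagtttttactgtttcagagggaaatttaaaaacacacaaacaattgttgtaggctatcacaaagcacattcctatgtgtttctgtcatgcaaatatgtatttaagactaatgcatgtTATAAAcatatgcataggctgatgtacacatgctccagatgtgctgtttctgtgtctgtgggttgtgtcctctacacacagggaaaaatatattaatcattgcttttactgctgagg
Col5a1 promoter window: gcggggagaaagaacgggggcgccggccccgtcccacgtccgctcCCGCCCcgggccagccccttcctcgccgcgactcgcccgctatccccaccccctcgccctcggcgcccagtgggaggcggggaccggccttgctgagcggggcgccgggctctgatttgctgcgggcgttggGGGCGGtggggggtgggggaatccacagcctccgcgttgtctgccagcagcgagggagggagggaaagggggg
The Col3a1 window was 35.2% G and C and held 1 TATAAA match, and the Col5a1 window was 76.4% G and C and held 2 GGGCGG matches. Over 32851 promoter windows of the same length the median was 52.4%, 12.4% held TATAAA and 32.7% held GGGCGG. The motif CCAAT, also searched for on both strands, was in neither window and in 33.8% of all windows. Neither window held more than 1 kind of motif, so matches to different motifs did not overlap. These matches describe letters only.

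Levels per length placed the opposite rows far above the collagen rows. Over the 16 libraries Gm13372 averaged 753 CPM per kb of row length (CPM: fragments per 1e+06 of the TMM-scaled library size) and 2810430I11Rik averaged 97.8. Col5a1 averaged 5.09 CPM per kb, Col3a1 5.05 and Col5a2 2.41. Gm13372 was thus 148 times and 2810430I11Rik 19.2 times the Col5a1 level per kb, while Col5a1 and Col3a1 were at a ratio of 1.01. Every library of Gm13372 and 2810430I11Rik, at 137 CPM or more and 72.4 CPM or more, gave at least 117 and 62 fragments. The collagen rows were counted thinly, with 13 to 116 fragments for Col3a1, 13 to 92 for Col5a1 and 5 to 48 for Col5a2, so counting error alone is wide for a given library. Col5a3, the remaining type V gene, had 0 to 7 fragments in each library, too few to be tested. The other 5 rows passed the filter on low counts in every comparison.

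Col3a1 had 78.6, 26.6, 43.4 and 36.5 CPM in the loaded limbs of NT3 mice 1 to 4, against 18.5, 37.3, 16.8 and 38.4 CPM in their non-loaded limbs. These groups overlapped, and mice 1 and 3 were higher in the loaded limb while mice 2 and 4 were not. The log2 change in NT3 was 0.72 (SE 0.33, edgeR quasi-likelihood adjusted p = 0.63). It was 0.21 without NT3 mouse 1, which had the largest change, and 1.09 without NT3 mouse 2. In Ctrl, the row had 64.4, 91.9, 77.2 and 131 CPM in loaded limbs, against 40.0, 21, 31.3 and 39.7 CPM in non-loaded limbs. All 4 loaded limbs of Ctrl were above all 4 non-loaded limbs. The Ctrl groups averaged 91.1 ± 28.9 and 33.0 ± 8.94 CPM (SD, n = 4 each), a log2 change of 1.45 (SE 0.29, edgeR adjusted p = 0.0023).

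Col5a1, the chain common to most type V collagen, had 47.4, 47.5, 29 and 57.5 CPM in loaded limbs of NT3 mice 1 to 4, against 26.1, 54.2, 28.4 and 36.3 CPM in non-loaded limbs. Mice 1 and 4 were higher in the loaded limb, mouse 3 had nearly equal limbs and mouse 2 was lower. The log2 change in NT3 was 0.34 (SE 0.26, edgeR adjusted p = 0.86), with an interval of 2 SE either side that ran from -0.18 to 0.86. It was 0.17 without NT3 mouse 1, 0.54 without NT3 mouse 2 and 0.05 with the marrow covariate. In Ctrl the row had 42.9, 65.2, 51.0 and 104 CPM in loaded limbs, against 15.3, 15.2, 33.4 and 38.7 CPM in non-loaded limbs. Loaded limbs of Ctrl were all higher, with the least distance between the groups at 42.9 against 38.7 CPM. The log2 change in Ctrl was 1.37 (SE 0.26, edgeR adjusted p = 0.00037).

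Col5a2, which encodes the partner chain, had 32.3, 32.1, 17.1 and 18.2 CPM in loaded NT3 limbs, against 17.4, 7.91, 7.74 and 10.7 CPM in non-loaded NT3 limbs. Each of the 4 NT3 mice was higher in the loaded limb, although the lowest loaded value, 17.1 CPM, lay under the highest non-loaded value, 17.4 CPM. The log2 change in NT3 was 1.18 (SE 0.35, unadjusted p = 0.0018, edgeR adjusted p = 0.17), so it did not pass over all rows tested. In Ctrl it had 40.5, 30.6, 52.3 and 54.2 CPM in loaded limbs, against 11.8, 5.84, 17.3 and 13.2 CPM in non-loaded limbs. The limbs of Ctrl did not overlap, and the log2 change of 1.90 (SE 0.32, edgeR adjusted p = 6.6e-05) was the largest of the 3 collagen rows in Ctrl.

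**Figure D2:**
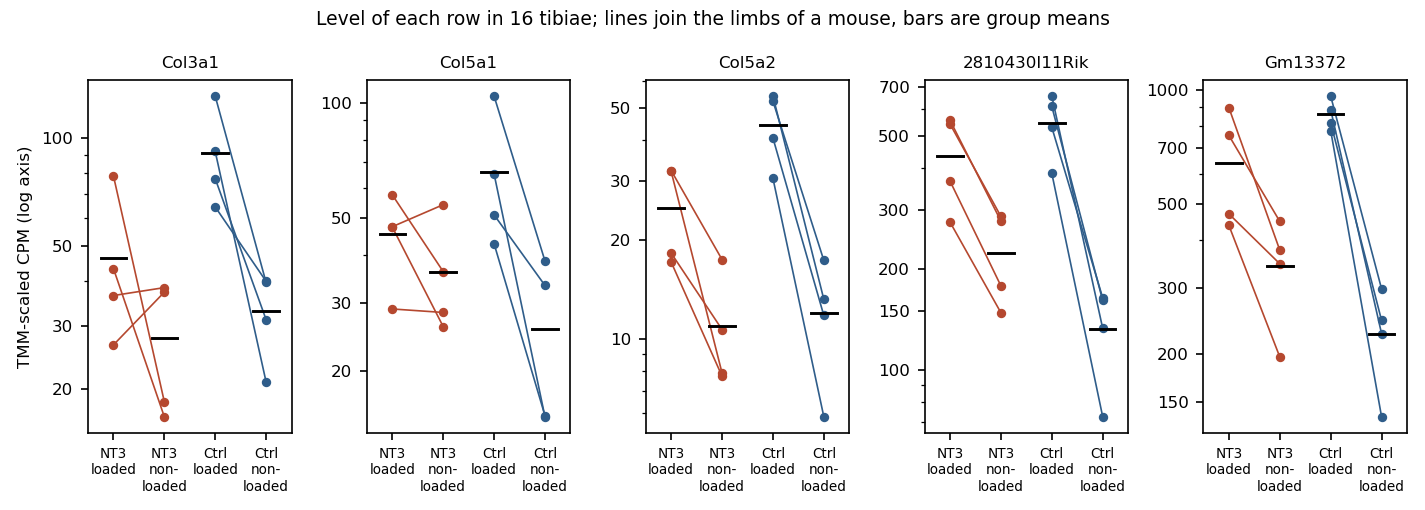
TMM-scaled CPM of each row (log axis) in the 4 groups, with a line joining the limbs of each mouse and a bar at each group mean (n = 4 limbs a group). Loaded limbs lie above non-loaded limbs without overlap in Ctrl for all 5 rows, as for 4.91% of rows tested, and the groups overlap in NT3. The rows 2810430I11Rik and Gm13372 were chosen for their loading response.

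2810430I11Rik had 556, 542, 276 and 366 CPM in loaded NT3 limbs, against 278, 287, 148 and 178 CPM in non-loaded NT3 limbs. It had 612, 386, 530 and 657 CPM in loaded Ctrl limbs, against 161, 72.4, 164 and 133 CPM in non-loaded Ctrl limbs. The loaded limb was higher in all 8 mice, while the NT3 groups overlapped because mice 1 and 2 were high in both limbs and mice 3 and 4 low in both. The fitted log2 changes were 0.96 (SE 0.13) in NT3 and 2.07 (SE 0.13) in Ctrl. Within mice they ran from 0.90 to 1.04 in NT3 and from 1.69 to 2.41 in Ctrl.

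Gm13372 had 896, 757, 438 and 470 CPM in loaded NT3 limbs, against 377, 449, 197 and 347 CPM in non-loaded NT3 limbs. It had 886, 780, 818 and 962 CPM in loaded Ctrl limbs, against 227, 137, 246 and 298 CPM in non-loaded Ctrl limbs. NT3 mice 1 and 2 were again high, and loaded limbs of NT3 mice 3 and 4 lay close to the 449 CPM of the highest non-loaded NT3 limb. The fitted log2 changes were 0.90 (SE 0.13) in NT3 and 1.96 (SE 0.14) in Ctrl. Within mice they ran from 0.44 to 1.25 in NT3 and from 1.69 to 2.51 in Ctrl.

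Of the 3 collagen rows, Col5a2 was higher with loading in 4 of 4 NT3 mice, as were 7.77% of all rows tested. All 3 were so in 4 of 4 Ctrl mice, as were 11.8% of rows. In NT3, 546 rows had an unadjusted edgeR p under 0.05, Col3a1 and Col5a2 among them. The median log2 change over all rows was 0.00 in NT3 and -0.03 in Ctrl.

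**Figure D3:**
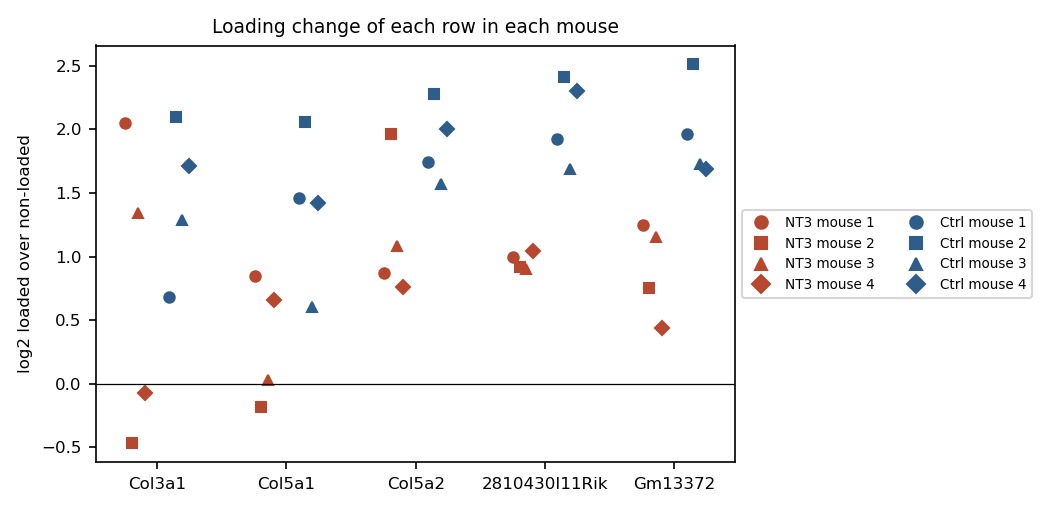
Log2 of loaded over non-loaded CPM within each of 4 NT3 (red, left) and 4 Ctrl (blue, right) mice, for each row. The NT3 changes of 2810430I11Rik lie between 0.90 and 1.04, whereas those of Col3a1 spread from -0.47 to 2.05.

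The loading effect in NT3 was set against that in Ctrl by a test of the difference itself. It was -0.73 (SE 0.44, edgeR adjusted p = 0.85) for Col3a1, with -1.24 without NT3 mouse 1 and -0.35 without NT3 mouse 2, and -0.72 (SE 0.49, edgeR adjusted p = 0.88) for Col5a2. For Col5a1 it was -1.02 (SE 0.37, unadjusted p = 0.0082, edgeR adjusted p = 0.53). None of the 3 passed, and 0.139% of the 7192 rows did, all of them with negative values. A smaller loading effect of the collagen rows in NT3 was thus not established, and the intervals of 2 SE were wide, from -1.76 to -0.28 for Col5a1 and from -1.62 to 0.15 for Col3a1. As a description, the opposite rows had differences of -1.10 (SE 0.18) for 2810430I11Rik and -1.07 (SE 0.19) for Gm13372.

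For genotype alone edgeR called 0 of the 5 rows in either limb, and DESeq2 called only Col3a1, in loaded limbs. The rows 2810430I11Rik and Gm13372 were chosen for a loading response in these same limbs. Their genotype values and p-values within a limb are thus not independent of that choice. In non-loaded limbs the unadjusted p was 0.017 for 2810430I11Rik and 0.05 for Gm13372 and higher for the collagen rows. In loaded limbs it was 0.0017 for Col3a1, 0.0092 for Col5a2, 0.025 for Gm13372 and 0.047 for Col5a1. In non-loaded limbs the NT3 and Ctrl means were 36.2 ± 12.7 and 25.6 ± 12.2 CPM for Col5a1, 223 ± 69.9 and 133 ± 42.5 CPM for 2810430I11Rik, and 343 ± 106 and 227 ± 67.3 CPM for Gm13372 (SD, n = 4 each). All 3 rows of the locus had positive log2 differences here. These were 0.47 (SE 0.33, edgeR adjusted p = 0.82) for Col5a1, 0.74 (SE 0.27, edgeR adjusted p = 0.48) for 2810430I11Rik and 0.58 (SE 0.27, edgeR adjusted p = 0.64) for Gm13372. The Col5a1 value was 0.24 without NT3 mouse 2 and 0.75 without Ctrl mouse 4. Col3a1 and Col5a2 had log2 differences of -0.25 and -0.14, with SE of 0.32 and 0.44. The background was 0.579% of 6220 rows called.

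In loaded limbs all 5 log2 differences of NT3 over Ctrl were negative. Col3a1 averaged 46.3 ± 22.7 CPM in NT3 and 91.1 ± 28.9 CPM in Ctrl (SD, n = 4 each), a log2 difference of -0.96 (SE 0.27, edgeR adjusted p = 0.059). This value lay at the threshold. The adjusted p was 0.047 with DESeq2, 0.0061 in edgeR with no filter on low counts, 0.031 without Ctrl mouse 1 and 0.0025 without NT3 mouse 1, whose loaded limb was the highest of NT3. Over all alternatives it ran from 0.0025 to 0.64, the highest with the marrow covariate. Col5a2 averaged 25 ± 8.42 CPM in NT3 and 44.4 ± 11 CPM in Ctrl, with a log2 difference of -0.81 (SE 0.29, edgeR adjusted p = 0.16). Col5a1 differed by -0.54 (SE 0.26, edgeR adjusted p = 0.37), 2810430I11Rik by -0.33 (SE 0.22, edgeR adjusted p = 0.61) and Gm13372 by -0.43 (SE 0.18, edgeR adjusted p = 0.27). The Col5a1 value was -0.24 without Ctrl mouse 4 and -0.28 with the marrow covariate, and that of 2810430I11Rik was -0.15 without NT3 mouse 3. For Gm13372 the adjusted p was 0.021 without NT3 mouse 1, with a log2 difference of -0.63, and ran from 0.021 to 0.82 over the alternatives. Both opposite rows were chosen on counts that include these loaded limbs, so their p-values here are not independent of the choice. The groups overlapped for all 5 rows, and 2.65% of 6080 rows were called.

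**Figure D4:**
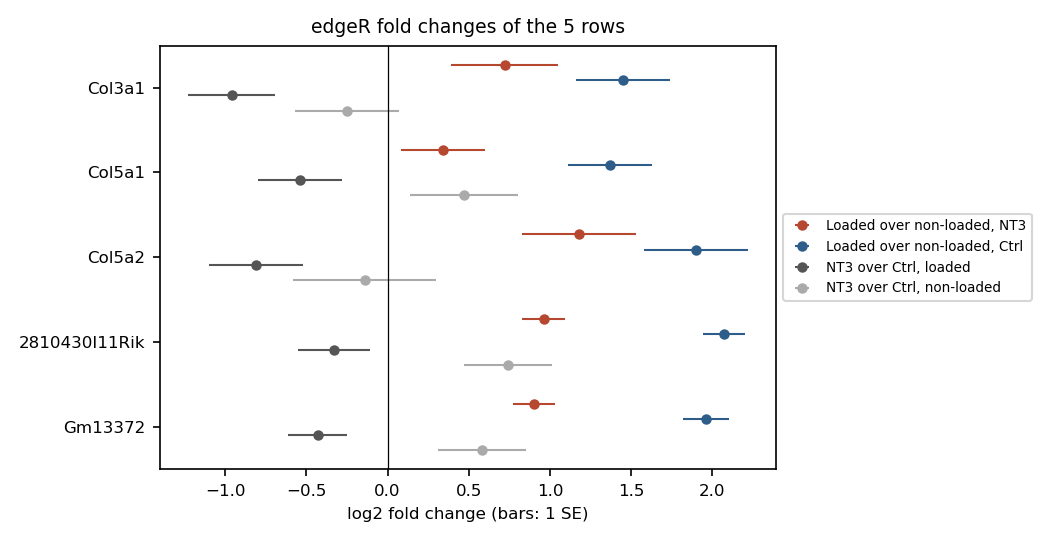
Log2 fold changes with 1 SE from edgeR for loading in NT3 and in Ctrl, and for NT3 over Ctrl in loaded and in non-loaded limbs (4 mice a genotype). Loading values are all above 0, values for NT3 over Ctrl in loaded limbs are all below 0, and the loading values of 2810430I11Rik and Gm13372 are descriptions of rows chosen for them.

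Ratios between rows within a library do not depend on how libraries are scaled, and they showed how far the rows of the locus moved together. The Col5a1 row held 4.25% ± 1.49 of the fragments of the 3 rows in loaded NT3 limbs and 6.19% ± 1.63 in non-loaded NT3 limbs. It held 4.44% ± 1.49 in loaded Ctrl limbs and 6.58% ± 1.95 in non-loaded Ctrl limbs (SD, n = 4 each). The log2 ratio of Col5a1 to the sum of its opposite rows was lower in the loaded limb in 8 of 8 mice, by a mean of -0.61 (SD 0.39). NT3 mouse 4, at -3.85 in the loaded and -3.84 in the non-loaded limb, was nearly level. This is a description, since the rows in the denominator were chosen for their loading response. By genotype the ratio averaged -4.24 ± 0.39 in NT3 and -4.16 ± 0.50 in Ctrl over mice (SD, n = 4 each), with an exact two-sided permutation p of 0.771 (0.771 adjusted over 4 ratio tests).

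The log2 ratio of the opposite rows, 2810430I11Rik over Gm13372, differed between loaded and non-loaded limbs by a mean of 0.09 (SD 0.35), with 3 of 8 mice higher in the loaded limb, and by 0.01 without NT3 mouse 4 or without Ctrl mouse 4. This too is a description, since both rows were chosen for the same response. By genotype the ratio averaged -0.58 ± 0.05 in NT3 and -0.73 ± 0.21 in Ctrl (SD, n = 4 each; exact two-sided permutation p = 0.286, adjusted 0.533). The log2 ratio of Col5a2 to its neighbour Col3a1 was higher in the loaded limb in 6 of 8 mice, by a mean of 0.45 (SD 1.05, exact two-sided sign-flip p = 0.273, adjusted 0.533). Without NT3 mouse 1 the mean was 0.69 and the unadjusted exact p 0.0469. Between genotypes this ratio averaged -1.05 ± 0.31 in NT3 and -1.24 ± 0.41 in Ctrl (exact two-sided permutation p = 0.4, adjusted 0.533). The smallest p the exact tests can give is 0.00781 over 8 mice paired by limb and 0.0286 for 4 mice against 4.

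**Figure D5:**
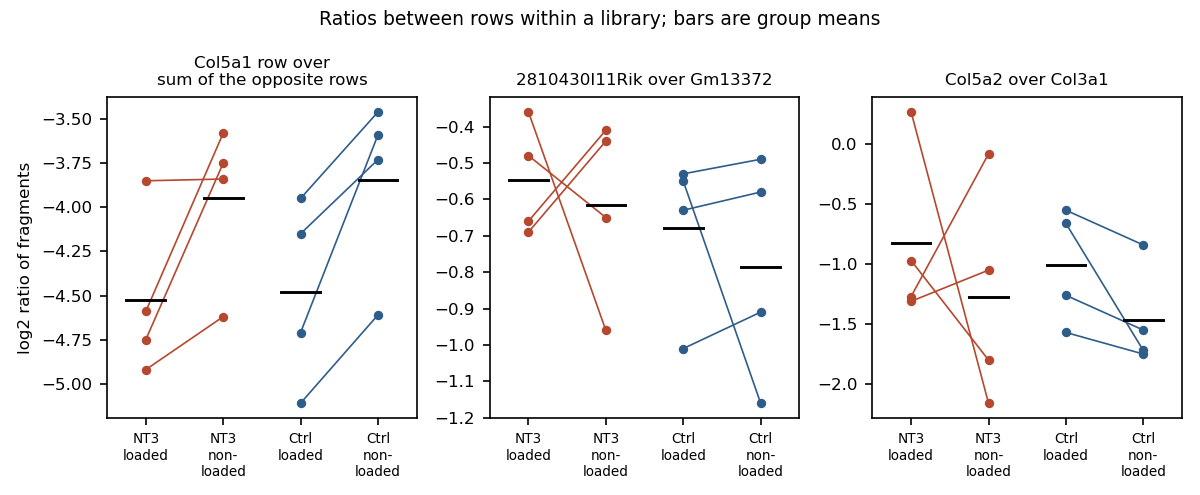
Log2 ratios of fragments within a library for Col5a1 over its opposite rows, 2810430I11Rik over Gm13372 and Col5a2 over Col3a1, by group, with a line joining the limbs of each mouse and bars at group means (n = 4 limbs a group). The Col5a1 ratio lies lower in the loaded limb of each mouse, by 0.01 in NT3 mouse 4, while the others cross.

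Over the 16 libraries, which share the loading contrast and their library depths, log2 CPM of 2810430I11Rik and Gm13372 correlated at Pearson r = 0.97. Col3a1 correlated with them at 0.67 and 0.76, Col5a1 at 0.76 and 0.80, and Col5a2 at 0.88 and 0.89. Among the collagen rows r was 0.69 for Col3a1 with Col5a1, 0.75 for Col3a1 with Col5a2 and 0.67 for Col5a1 with Col5a2. The part of counting error in these values was not tested. Among 4110 rows averaging at least 20 fragments, the rows most like Col3a1 were Col11a1 (r = 0.91), Gm16536 opposite Bace1 (0.90) and Psmc3 opposite Slc39a13 (0.87). Col5a1 was most like Lrrc4 (0.88), Cdan1 opposite Stard9 (0.87) and A930005N03Rik opposite Dst (0.86). Col5a2 was most like D230025D16Rik opposite B3gnt9, Ddx17 and Nt5c3b opposite Fkbp10, each at 0.92. Both opposite rows of Col5a1 were most like Prmt7, opposite Gm26786 and the sphingomyelinase gene Smpd3, at 0.95 for 2810430I11Rik and 0.97 for Gm13372. Next came Abi3, opposite Gngt2, Zfp652 and the mineralisation phosphatase gene Phospho1, at 0.94 and 0.96. After these came Gm16596 opposite Eml1 (0.93) for 2810430I11Rik and H2-Pb (0.95) for Gm13372.

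The other fibrillar collagen genes gave 6 of 8 rows with enough counts. This list and the gene lists below were chosen with earlier results of these data known. Their shares called, set beside those of all rows, are therefore descriptions. In NT3, 2 of 6 rose with loading, against 0.334% of all rows, Col11a2 by 1.68 (SE 0.26, edgeR adjusted p = 5.8e-05) and Col1a1 by 1.19 (SE 0.16, edgeR adjusted p = 1.5e-05) on the log2 scale. In Ctrl, 4 of 6 rose, against 3.07% of all rows. Col1a1 and Col1a2, the chains of type I collagen, rose by 2.06 (SE 0.17) and 1.79 (SE 0.18), and Col11a1 and Col11a2, chains of type XI collagen, by 1.98 (SE 0.30) and 1.54 (SE 0.24), with edgeR adjusted p of 1e-05 or less. Col24a1 and Col27a1 had 0.66 and -0.37 in Ctrl and did not pass. The median log2 loading change of the 6 was 0.75 in NT3 and 1.66 in Ctrl, against 0.00 and -0.03 over all rows. In the test of the difference in loading effect, 1 of 6 passed, against 0.139% of all rows, Col1a2 at -1.13 (SE 0.25, edgeR adjusted p = 0.046). Between genotypes, 1 of 6 was called in loaded limbs, where 2.65% of all rows were, Col11a1 at -1.34 (SE 0.28, edgeR adjusted p = 0.0034), and 0 in non-loaded limbs.

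Of 20 genes for proteins that act in fibril assembly or bind the fibril surface, 9 had a row tested for loading. In Ctrl 2 of 9 rose, against 3.07% of all rows, Sparc, a collagen-binding matrix protein, by 1.85 (SE 0.25, edgeR adjusted p = 6.4e-07) and Col12a1, a fibril-associated collagen, by 1.67 (SE 0.42, edgeR adjusted p = 0.012). The small proteoglycan rows Ogn and Aspn had -0.40 and -0.21 and did not pass. The median of the 9 was 0.20 in NT3 and 0.79 in Ctrl. Rows opposite genes of this group numbered 5, with medians of -0.14 in NT3 and 0.26 in Ctrl. Of these 5 rows, 2 rose in Ctrl, against the same 3.07%: Apol7d, opposite the fibronectin gene Fn1, by 0.87 (SE 0.12) and 8030451A03Rik, opposite the tenascin gene Tnc, by 0.44 (SE 0.11). None of these rows was called in NT3, in the difference in loading effect or between genotypes.

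For collagen folding, modification and cross-linking, 10 of 24 genes had a tested row, with a median of -0.01 in NT3 and 0.10 in Ctrl. Of these, 0 rose in NT3 and 1 in Ctrl, against 0.334% and 3.07% of all rows. The row called was P3h1, a prolyl 3-hydroxylase, which rose by 2.74 (SE 0.60, edgeR adjusted p = 0.0022) at a mean of 8.38 fragments. Rows opposite genes of this group gave 9 tested, with a median of 0.13 in NT3 and 0.15 in Ctrl. In NT3 only Nt5c3b, opposite the collagen chaperone gene Fkbp10, rose among these 9, by 0.71 (SE 0.12, edgeR adjusted p = 2.3e-04). In Ctrl it rose by 1.63 (SE 0.12, edgeR adjusted p = 2.6e-14), and the loading effects differed by -0.92 (SE 0.17, edgeR adjusted p = 0.0021). A further 3 rose in Ctrl, making 4 of 9 against 3.07% of all rows. Gm38391, opposite the lysyl hydroxylase gene Plod2, rose by 1.15 (SE 0.12), Snx22, opposite Ppib, by 0.55 (SE 0.11) and Unc13a, opposite Colgalt1, by 0.44 (SE 0.12). In loaded limbs, where 2.65% of all rows were called, Nt5c3b and Gm38391 were lower in NT3 than in Ctrl, by log2 differences of -0.79 and -0.82, and Gm20412 and Rprd1b, both opposite the transglutaminase gene Tgm2, were higher, by 0.51 and 0.70. Procollagen processing had 1 tested row of 9 genes, Pcolce, an enhancer of C-propeptide removal, at -0.07 (SE 0.18, edgeR adjusted p = 0.98) in NT3 and -0.53 (SE 0.19, edgeR adjusted p = 0.12) in Ctrl. Of 12 collagen receptor genes, 4 rows by name and 1 opposite row, 3110045C21Rik opposite Ddr2, were tested and 0 were called in any comparison by edgeR.

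Markers of other cell types moved with some of these values. The 2 rows opposite osteoblast genes, Abi3 and Runx2os1, summed to 1920 to 3570 CPM in loaded and 829 to 1590 CPM in non-loaded NT3 limbs. They summed to 3280 to 5100 CPM in loaded and 665 to 1210 CPM in non-loaded Ctrl limbs, without overlap in either genotype. Most of this sum was Abi3, with 455 to 4198 fragments against 104 to 208 for Runx2os1. Abi3 lies opposite Gngt2 and Zfp652 as well as the osteoblast gene Phospho1. By name, the 8 osteoblast rows summed to 324 to 370 and 287 to 435 CPM in loaded and non-loaded NT3 limbs, and to 278 to 477 and 202 to 332 CPM in loaded and non-loaded Ctrl limbs, with overlap in both genotypes. The 3 rows opposite fibroblast and periosteum genes summed to 236 to 263 and 199 to 296 CPM in loaded and non-loaded NT3 limbs. They summed to 252 to 304 and 148 to 202 CPM in loaded and non-loaded Ctrl limbs, without overlap in Ctrl. By name, the 9 rows of that list summed to 43.4 to 70.1 and 36.1 to 57.6 CPM in loaded and non-loaded NT3 limbs, and to 42.9 to 58.7 and 33.9 to 58.2 CPM in loaded and non-loaded Ctrl limbs. Its tendon rows Tnmd, Thbs4 and Mkx reached at most 12, 6 and 5 fragments. The 2 rows opposite marrow genes, Gm11505 (opposite Mpo) and Cerkl (opposite Itga4), had lower values in loaded limbs on average. They summed to 3160 to 4220 CPM in loaded and 4290 to 5820 CPM in non-loaded NT3 limbs, without overlap. In Ctrl the sums were 1910 to 3990 CPM in loaded and 2920 to 8240 CPM in non-loaded limbs, with overlap. The level of these rows thus itself differed between limbs. With the mean log2 level of these marrow rows as a covariate, the Ctrl loading values were 1.79 for Col3a1, 0.84 for Col5a1 and 2.02 for Col5a2, with edgeR adjusted p of 0.26, 0.69 and 0.21. Under the other alternatives the adjusted p of these 3 rows reached at most 0.026, 0.019 and 0.0013, each without Ctrl mouse 2. The covariate fit called 43 rows for loading in Ctrl, against 293 without it. As a description, its Ctrl loading values were 2.00 for 2810430I11Rik and 1.80 for Gm13372, against 2.07 and 1.96 without the covariate. Rows opposite muscle genes ranged from 616 to 7720 CPM over the libraries, with overlap between all groups. By name, the osteocyte rows summed to 145 to 292 and 150 to 277 CPM in loaded and non-loaded NT3 limbs, and to 241 to 358 and 211 to 301 CPM in loaded and non-loaded Ctrl limbs. Osteoclast, endothelial, chondrocyte and adipocyte rows were low by name, at no more than 35.2, 38.2, 9.34 and 5.44 summed CPM in any library, with Col9a1 at 0 in all 16. The 4 smooth muscle rows by name summed to 105 to 113 CPM in loaded and 80.2 to 97.1 CPM in non-loaded NT3 limbs, without overlap, and to 82.0 to 143 and 82.4 to 106 CPM in loaded and non-loaded Ctrl limbs. Pcsk7, opposite the smooth muscle gene Tagln, had 16.8 to 31.2 and 16.0 to 27.1 CPM in loaded and non-loaded NT3 limbs, and 23.9 to 32.7 and 16.3 to 20 CPM in loaded and non-loaded Ctrl limbs, without overlap in Ctrl. Beyond the covariate fit, the part of these cell types in the collagen values was not tested.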

How the data were processed

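RNA-seq libraries were made by the authors from ribosomal RNA-depleted total RNA (mean RNA integrity number 5.4, random primers, single-end reads of 75 bases), per the labels' protocols. Per the submitters' processing notes, the tools were STAR 2.4.2a, featureCounts 1.4.6 of Subread and DESeq2, and the build was mm10. The deposited values are whole-number fragment counts per gene name, per the file headers, with no normalization. Annotation release and strand setting: not given in the sources used here.

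Rows were matched by symbol to GENCODE M21 (45250 of 47517 rows). A row lay opposite a gene if their exons shared 20 or more bases on different strands. Members and gene lists were chosen with earlier results of these data known. The main test was the robust quasi-likelihood F test of edgeR 4.0.16 (R 4.3.3, limma 3.58.1) after TMM scaling and filterByExpr with a minimum count of 10. P-values were adjusted over all rows tested by the Benjamini-Hochberg method, with calls under 0.05. Loading was tested over 16 libraries with a block for mouse, genotype over 8 libraries of separate mice without one. Both limbs share the animal number in the labels. Deviations from group means correlated at 0.045 to 0.178 within mice, and for Ctrl mouse 4 another mouse gave 0.157 against 0.045. Ratios used a pseudocount of 0.5 and exact tests over mice. The exact tests planned for loading changes of the ratios that hold 2810430I11Rik or Gm13372 were computed at first but are not reported, because these rows were chosen on that contrast.

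Named genes were the members, Col5a3, rows opposite type III or V genes, the 3 rows most correlated with each member, and in each list the called rows with up to 3 of the highest counts. Scripts were tested on simulated counts. SE is the fold change over the square root of F. Alternatives were DESeq2 1.42.0, its size factors, no filter, removal of the 4 largest rows, no block, an animal-number term, a marrow covariate, a pseudocount of 2 and each mouse left out.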

Additional observations from a re-analysis of the deposited data

How the results depend on the processing

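Under the alternatives, 283 of 299 values with a test kept their direction and side of the threshold, and 52 of 70 counts of called rows stayed within 1.5 times. The 104 values given as descriptions, with no test, kept their sign and moved by less than 1 SD between mice. A further 4 DESeq2 values without an adjusted p were left out. The cause of each change was not tested. Rows called for loading in NT3 numbered 17 with DESeq2, 14 with the marrow covariate and 5 with no replicate block, against 30, and 17 to 44 with a mouse left out (17 without NT3 mouse 1). In Ctrl they numbered 169, 43 and 171 under the same settings, against 293, and 163 to 325 with a mouse left out (163 without Ctrl mouse 2, 188 without Ctrl mouse 3). The difference in loading effect gave 17 calls with no filter and, with edgeR and no replicate block, 0 (335 at an unadjusted p under 0.05), against 10. NT3 against Ctrl gave 71 calls with no filter in non-loaded limbs, against 36, and 12 to 77 with a mouse left out (12 and 20 without Ctrl mice 2 and 3, 14 without NT3 mouse 3, 77 without Ctrl mouse 1). In loaded limbs it gave 28 with the marrow covariate and 64 with an animal-number term, against 161.

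For single rows, the marrow covariate ended the Ctrl loading calls of Col3a1 (1.79), Col5a1 (0.84) and Col5a2 (2.02). Leaving out the replicate block changed no other call among the members. In loaded limbs the genotype difference of Col3a1 passed with DESeq2 and with no filter (-0.96 in both) and ran from -1.35 to -0.73 with a mouse left out. That of Gm13372 ran from -0.63 to -0.28. With no filter 2810430I11Rik passed in non-loaded limbs (0.75, edgeR adjusted p = 0.019, with a range of 0.019 to 0.72 over the alternatives). This row was chosen on counts that include those limbs, so its pass is not independent of the choice. The Col5a2 difference in non-loaded limbs changed sign with the animal-number term (0.02) and ran from -0.46 to 0.08 with a mouse left out. The genotype difference of the Col5a1 ratio ran from -0.30 to 0.11, and the loading change of the Col5a2 to Col3a1 ratio from 0.17 to 0.69. Depth limits the collagen rows, of which Col5a2 had as few as 5 fragments. The edgeR intervals and p-values use a spread estimated with information shared over rows and both genotypes, not from 1 row in 1 genotype. Loading changes within NT3 mice had an SD of 1.18 for Col3a1 and 0.07 for 2810430I11Rik (n = 4). The edgeR SE of these loading effects were 0.33 and 0.13. All intervals and p-values cover these mice only. Duplicate PCR reads were not removed by molecular identifiers.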
